A study of Homo sapiens with 6 samples.

Results

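Interleukin-1 (IL1) family cytokines, their receptors and caspase-1 were followed in BT-549 cells, a human triple negative breast cancer line, grown for 24 h in adipocyte-conditioned medium (ACM) or unconditioned medium (UCM). The members are 9 genes, chosen by symbol: the ligands IL1A, IL1B, IL33 and IL18, the antagonist IL1RN, the receptor subunits IL1R1, IL1RAP and IL1RL1, and the protease CASP1. Each symbol matched 1 of the 63140 gene identifiers in the expression tables. The cells were non-transgenic (genotype WT) and there were 3 libraries per condition, made from polyA RNA and sequenced as pairs. The ACM came from OP-9 cells, a mouse stromal line differentiated to adipocytes in a medium holding insulin, oleate and albumin. It was the supernatant of that same medium, so these additions could be carried over to the BT-549 cells. The labels put ACM at 50%, whereas the study's supplementary methods describe undiluted ACM for RNA-seq, and the composition of UCM is not given in the sources used here. Differences between the base media therefore cannot be told apart from differences due to secreted factors. Nothing says that the replicate wells were independent cultures, so p-values measure only the spread between these wells, which may be technical.

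IL1A and IL1B are alarm cytokines that bind the receptor IL1R1. The bound receptor recruits the accessory subunit IL1RAP, and the paired intracellular domains gather the adaptor MYD88 and the kinases IRAK4, IRAK1 and IRAK2, which leads through TRAF6 to NF-kB and to transcription of chemokines, IL6 and matrix proteases. IL1RN occupies IL1R1 without recruiting IL1RAP. IL33 signals through IL1RL1 (also called ST2), again with IL1RAP, and IL18 uses a separate receptor pair. IL1B and IL18 are made as inactive precursors that caspase-1, the product of CASP1, cleaves inside inflammasomes. Macrophages are the best known source of IL1B, and IL1B is a known feature of inflamed adipose tissue.

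Library totals ran from 17135288 to 21053257 expected counts (the read number that RSEM estimates per gene), so that 3 counts in a library equal 0.143 to 0.175 CPM (counts scaled to the library size). Of the defining marker genes, the 6 mesenchymal genes summed to 106304 to 128515 counts per library and the 7 epithelial genes to 23 to 52, although the labels call the cells epithelial. ESR1 and PGR had 0 counts in all libraries and ERBB2 had 1253 to 1564. The 10 leukocyte markers summed to 12 to 21 counts in ACM and 18 to 25 in UCM, with TYROBP, LYZ and AIF1 at 0 in every library. The 7 adipocyte markers summed to 37 to 57 counts in ACM and 26 to 33 in UCM, with ADIPOQ, CIDEC and LEP at 0 in every library. Nearly all of that sum was CFD, with counts of 50, 37 and 55 in ACM, against 30, 25 and 33 in UCM.

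IL1B was the only member called between the media, and it was higher in ACM. It rose from 2 reads in the 3 UCM libraries to 52 reads in the 3 ACM libraries. The receptor subunits IL1R1 and IL1RAP were well expressed in both media and did not pass the test. IL1A, IL18 and CASP1 had at most 9 counts in any library, and IL33, IL1RN and IL1RL1 had none. Only IL1B, IL1R1 and IL1RAP had enough reads to enter the test over 14451 genes. The call is an adjusted p of at most 0.05 in edgeR's quasi-likelihood test with Benjamini-Hochberg adjustment over all genes tested. By that call 1 of the 3 tested members was higher and 0 were lower, against 3.35% and 2.21% of all genes tested. IL1B needed its ACM reads to enter the test, so the count of 1 is a description. At the thresholds of the study (unadjusted p of at most 0.05 and log2 fold change, log2 FC, of at least 0.58 in size) the count was again 1 higher and 0 lower, against 4.12% and 1.71% of all genes tested. The median log2 FC of the 3 tested members was 0.30, and that of all genes tested was -0.01.

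**Figure D1:**
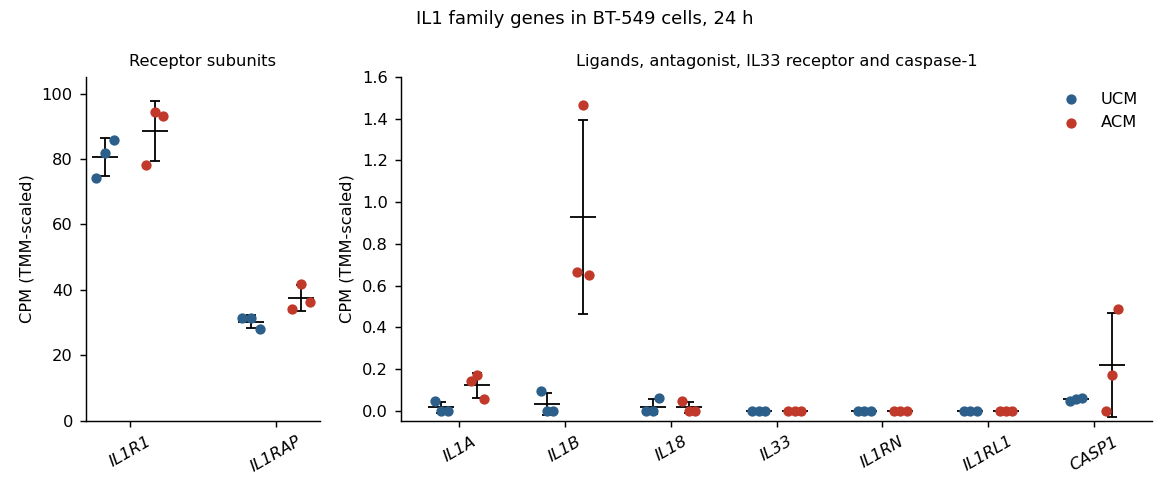
Level of each member in TMM-scaled CPM (vertical axes, linear; the 2 panels have different scales) in the 3 UCM and 3 ACM libraries. Points are libraries, and bars are the mean and SD of 3. IL1B in ACM sits at 0.652 to 1.47 CPM, above UCM at 0 to 0.0948, and IL1R1 and IL1RAP stand at 28.1 to 94.4 CPM in both media.

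IL1B (ENSG00000125538.12) lies at chr2:112829751-112836816 on the minus strand of GRCh38, with 7 exons in the canonical GENCODE 44 transcript. ACM replicates 1 to 3 gave 14, 26 and 12 counts, and the UCM replicates gave 2, 0 and 0. All ACM libraries lay above all UCM libraries, as did those of 13.9% of all genes tested. In RNA from whole wells, more cells that express a gene and more RNA per cell cannot be told apart. The 10 leukocyte markers together had 12 to 21 counts in ACM against 18 to 25 in UCM, and a part of such cells in the result was not tested. CFD, the adipocyte marker whose ACM libraries all lay above UCM, had a log2 FC of 0.67 (adjusted p 0.20 by edgeR), and its part in the result was not tested. In CPM the level was 0.927 ± 0.465 (SD, n = 3) in ACM and 0.0316 ± 0.0547 (SD, n = 3) in UCM. The fitted log2 FC was 4.48 (SE 0.86, 95% interval 2.58 to 6.38), with an adjusted p of 0.017 by edgeR. IL1B entered the test only through its ACM reads, so this interval and p-value are a description as well. The fitted log2 FC also depends on how the model treats 2 UCM reads. The ratio of reads per library size was 25.9, with an exact 95% counting interval of 6.81 to 219 that covers counting error only. Both UCM reads came from replicate 1. Without that library UCM was at 0, and the ACM reads per library size were 10.8-fold those of 3 counts over the remaining UCM libraries. This figure leaves out the only UCM library with reads and takes the 52 ACM reads as exact. It is thus less cautious than the lower limit of 6.81 over all libraries.

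The direction held in each of the 12 alternative fits that gave IL1B an adjusted p, and the call did not hold in all of them. The adjusted p by edgeR rose to 0.081 without ACM replicate 2, to 0.081 without UCM replicate 2 and to 0.072 without UCM replicate 3, and over the 12 fits it ran from 2.37e-05 to 0.0812. DESeq2 gave a log2 FC of 4.76 with an unadjusted p of 0.000233 and no adjusted p. In TPM, which corrects for transcript length as well as depth, IL1B had 1.11, 1.65 and 0.77 in ACM, against 0.11, 0 and 0 in UCM. Its effective length, which RSEM assigns from the isoforms it favours where a gene has reads, was 846, 1227 and 1231 bases in ACM. In UCM it was 1224, 587 and 592 bases, and the last 2 come from libraries with 0 IL1B reads. Those 2 lengths therefore rest on no isoform evidence, and isoform use cannot be compared between the media. The gene has 8 annotated transcripts of 571 to 1617 exonic bases. Limma on log2(TPM + 1), a scale that understates the change of a low gene, gave a difference of 1.05 with an adjusted p of 0.023.

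IL1A (ENSG00000115008.6) codes for the other IL1 ligand and lies 45.3 kb from IL1B, at chr2:112773925-112784493 on the same strand, with 7 exons. It received 3, 3 and 1 counts in ACM, against 1, 0 and 0 in UCM. The libraries did not overlap in CPM, at 0.0544 to 0.169 in ACM and 0 to 0.0474 in UCM. ACM replicate 3 and UCM replicate 1 had 1 count each, so only their library sizes set them apart. All ACM values lay above all UCM values in 13.9% of all genes tested. An exact two-sided permutation test of the CPM values gave p = 0.1, the smallest that 3 against 3 allows, and it rests on that gap. The ratio of reads per library size was 6.96, and its exact counting interval of 0.894 to 314 includes no difference. Counted over all libraries, IL1A rests on 8 reads.

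The promoter sequences shown are those of IL1A, IL1B and IL1RAP, the members in which all ACM libraries lay above all UCM libraries in CPM. The same held in 13.9% of all genes tested. In IL1A this order rests on a small difference in library size, and in TPM the groups of IL1RAP overlapped. They are taken from RefSeq (GRCh38.p14), read on the strand of the gene, and stop before the first annotated start in GENCODE 44. Capitals mark any match to the kappa B motif of NF-kB (GGGA and TTCC with 2 free bases between them), the AP-1 motif TGANTCA, the C/EBP motif TTGCNNAA (these 3 on both strands) or the TATA box TATAAA (gene strand). IL1A is chr2:112784494-112784743, minus strand, IL1B is chr2:112836817-112837029, minus strand, and IL1RAP is chr3:190513835-190514050, plus strand.
IL1A: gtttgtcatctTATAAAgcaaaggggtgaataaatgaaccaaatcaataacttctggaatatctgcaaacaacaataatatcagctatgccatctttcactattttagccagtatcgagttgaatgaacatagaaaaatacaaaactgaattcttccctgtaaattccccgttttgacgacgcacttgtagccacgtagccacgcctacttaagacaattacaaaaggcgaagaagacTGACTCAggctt
IL1B: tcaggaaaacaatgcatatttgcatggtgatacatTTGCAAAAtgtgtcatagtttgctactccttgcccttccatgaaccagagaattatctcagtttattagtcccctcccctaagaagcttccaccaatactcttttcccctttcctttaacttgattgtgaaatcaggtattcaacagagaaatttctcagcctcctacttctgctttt
IL1RAP: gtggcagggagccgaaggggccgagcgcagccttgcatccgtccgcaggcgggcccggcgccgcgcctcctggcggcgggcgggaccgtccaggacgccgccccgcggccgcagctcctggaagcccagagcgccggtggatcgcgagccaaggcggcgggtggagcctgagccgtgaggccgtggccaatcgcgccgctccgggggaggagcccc

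Of the 250 bases before a start, 6.57% of 35116 RefSeq promoter windows held the AP-1 letters, 6.8% TATAAA, 9.05% the C/EBP letters and 1.4% the kappa B letters. The IL1A window shown has TATAAA at its far end and a TGACTCA next to the start, and the IL1B window has a single TTGCAAAA. The other IL1A window had 2 AP-1 matches and no TATAAA. IL1RN and IL1RL1, which had no reads, each had 1 window with an AP-1 match and another with TATAAA. The windows of IL33, IL1R1 and IL1RAP held none of these motifs. No window of the 7 members with an entry held the kappa B letters, which says only that these letters are not in these windows. Base composition varied among the members. The IL1B window was 40% G or C with 1 CpG, and that of IL1A shown was 37.6% with 7 CpG, where the median window had 58% and 11 CpG. The IL1RAP window was 74.8% G or C with 33 CpG. These values are for the 250 bases, and the printed stretches of IL1B and IL1RAP are shorter. Printed IL1B has 213 bases, 38.97% G or C and 0 CpG, and printed IL1RAP has 216 bases, 79.17% and 31 CpG. IL1R1 had 4 annotated starts, with windows from 39.6% to 76.8% G or C and from 3 to 31 CpG, and only 1 of the 4 lay above the medians. Those of the receptor IL1RL1 were 33.2% and 33.6% with 0 and 1 CpG, and those of the ligand IL33 37.6% and 42.4% with 0 and 3 CpG. The antagonist IL1RN had windows of 59.6%, 42% and 48.4% with 2, 2 and 6 CpG. IL18 and CASP1 had no entry.

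**Figure D2:**
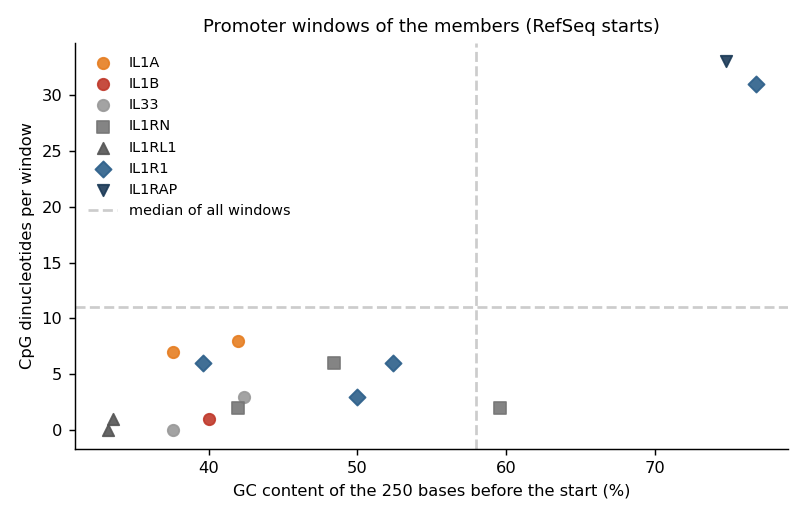
GC content (horizontal axis, percent) and CpG dinucleotides (vertical axis, count) in the 250 bases before each RefSeq start of the 7 members with an entry. Each point is a start, and dashed lines are the medians of 35116 windows, 58% and 11. IL1RAP and 1 start of IL1R1 lie at the upper right, and IL1A and IL1B lie below both medians.

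IL1R1 (ENSG00000115594.12), the signalling receptor for IL1A and IL1B, lies at chr2:102064544-102179874 on the plus strand with 12 exons. It had 1644, 1676 and 1716 counts in ACM, against 1569, 1520 and 1474 in UCM. Scaled to library size these were 78.1, 94.4 and 93.3 CPM in ACM, against 74.3, 81.7 and 86.0 CPM in UCM, so that the groups overlapped. The log2 FC was 0.14 (SE 0.09, 95% interval -0.07 to 0.34), with an adjusted p of 0.41 by edgeR. The interval leaves room for a rise of 0.34 and excludes the 0.58 that the study used as its threshold. An antisense gene within it, IL1R1-AS1, had 0 counts.

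IL1RAP (ENSG00000196083.11), the accessory subunit shared by the receptors for IL1 and IL33, lies at chr3:190514051-190659750 on the plus strand with 12 exons. It had 718, 743 and 671 counts in ACM, against 663, 587 and 482 in UCM. The levels were 34.1, 41.9 and 36.5 CPM in ACM, against 31.4, 31.6 and 28.1 CPM in UCM, and all ACM libraries lay above all UCM libraries. The log2 FC was 0.30 (SE 0.10, 95% interval 0.08 to 0.52). The unadjusted p was 0.012 and the adjusted p by edgeR 0.10, which misses the threshold. Corrected for length the groups overlapped, at 13.0, 14.7 and 14.5 TPM in ACM, against 12.5, 13.3 and 11.4 TPM in UCM, and limma on log2(TPM + 1) gave a difference of 0.17 with an adjusted p of 0.46. With every gene of at least 1 count in the test, IL1RAP passed with an adjusted p of 0.048 by edgeR, and its adjusted p ran from 0.0476 to 0.457 over 14 alternatives. The pseudogenes GCNT1P3 and RN7SKP296 overlap it on the same strand, with 0 to 4 counts in a library.

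Levels can be compared between genes on the TPM scale. IL1R1 stood highest at 24.3 to 31.6 TPM over the 6 libraries, and IL1RAP followed at 11.4 to 14.7 TPM, with no overlap between them. IL1B came next in ACM at 0.77 to 1.65 TPM, just above the highest library of CASP1 at 0.7 TPM. CASP1, IL1A and IL18 overlapped in ACM, and in UCM these 3 and IL1B all lay between 0 and 0.16 TPM and overlapped.

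CASP1 (ENSG00000137752.25), the protease that matures IL1B and IL18, lies at chr11:105025397-105035250 on the minus strand with 9 exons. It had 0, 3 and 9 counts in ACM, against 1, 1 and 1 in UCM. The groups overlapped, because ACM replicate 1 had no read and replicate 3 had most of them. An exact two-sided permutation test of the CPM values gave p = 0.4, and the ratio of reads was 3.98 with an exact counting interval of 1.07 to 21.96 that covers counting error only. CARD16, a gene closely related in sequence to CASP1, had 2 counts, both in ACM replicate 3, so the split of shared reads between them is uncertain. IL18 (ENSG00000150782.12, chr11:112143253-112164096, minus strand, 6 exons) had 1 count in ACM replicate 1 and 1 in UCM replicate 3, and no fold is given. An unnamed gene, ENSG00000255292, overlaps it, with 0 to 10 counts in a library.

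No read was assigned to IL33 (ENSG00000137033.12, chr9:6215786-6257983, plus strand), to its receptor IL1RL1 (ENSG00000115602.17, chr2:102311502-102352037, plus strand) or to the antagonist IL1RN (ENSG00000136689.20, chr2:113099315-113134016, plus strand). With 0 of 114145960 counts, each could still have been present at up to 0.0263 CPM. IL1RL1 overlaps IL18R1 on the same strand, which had 4, 0 and 2 counts in ACM, against 0, 0 and 0 in UCM. Of the members, 5 lie on chromosome 2, where IL1B and IL1RN are 263 kb apart and IL1R1 and IL1RL1 132 kb apart.

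The remaining family genes were mostly silent. Of 14 other IL1 family genes, 6 had 0 counts in all libraries and 2 entered the test. These were SIGIRR, an inhibitory receptor of the family, with a log2 FC of 0.03 (adjusted p 0.92 by edgeR), and IL18BP, the secreted antagonist of IL18, with a log2 FC of 0.04 (adjusted p 0.97 by edgeR). Either sign reversed under some alternatives. The count at an unadjusted p of at most 0.05 was 0, and DESeq2 and limma called 0. The decoy receptor IL1R2 had 2 counts, both in UCM replicate 1. The receptor chain IL1RL2 had 5, 0 and 0 counts in ACM, against 1, 0 and 0 in UCM.

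Genes that process or release IL1 showed no call. Of 21 such genes, 12 entered the test, 7 with a positive and 5 with a negative log2 FC and a median of 0.11, and edgeR, DESeq2 and limma each called 0. At an unadjusted p of at most 0.05 the count was 1, against 11.9% of all genes tested with a positive log2 FC at that threshold. It was NINJ1, which drives rupture of the plasma membrane in dying cells. NINJ1 had 467, 402 and 406 counts in ACM, against 357, 357 and 336 in UCM, with a log2 FC of 0.27 (adjusted p 0.14 by edgeR). The next smallest p-values belonged to the pore former GSDME with a log2 FC of 0.14 (adjusted p 0.32), the protease CAPN2, a calpain, with 0.11 (adjusted p 0.35) and the inflammatory caspase CASP4 with 0.38 (adjusted p 0.41). Of the inflammasome sensors, NLRP1 and CARD8 were expressed and overlapped between the media. NLRP1 stood at 1.85 ± 0.415 TPM in ACM and 1.63 ± 0.272 TPM in UCM (SD, n = 3), with a log2 FC of 0.28 (adjusted p 0.46 by edgeR). CARD8 stood at 26.9 ± 7.56 TPM in ACM and 27.9 ± 4.05 TPM in UCM (SD, n = 3), with a log2 FC of -0.10 (adjusted p 0.75 by edgeR). Other sensors were near or at 0. NLRP3 had 1, 1 and 0 counts in ACM and none in UCM, NLRC4 had 3 and 4 counts in UCM replicates 1 and 2 and none in ACM, and AIM2 had none. The inflammasome adaptor PYCARD had 1 count in ACM and 2 in UCM. The pore former GSDMD was present at 77.8 ± 7.01 TPM in ACM (SD, n = 3), and CASP4 at 11.4 ± 4.04 TPM.

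Most genes that carry the signal from the receptor were expressed, with no call in the main edgeR fit. Of 25 genes 23 entered the test, 11 with a positive and 12 with a negative log2 FC and a median of -0.03. At an unadjusted p of at most 0.05 there were 4 with a positive and 2 with a negative log2 FC, against 11.9% and 11.5% of all genes tested, and limma called 0. The ubiquitin-conjugating enzyme UBE2N had a log2 FC of -0.23 (adjusted p 0.10 by edgeR) and the adaptor MYD88 one of -0.24 (adjusted p 0.11). In both, all ACM libraries lay below all UCM libraries. This held in 4 tested genes of the list, and in 3, among them RELA and IRAK2, all ACM libraries lay above. The shares over all genes tested were 15.1% below and 13.9% above. The NF-kB subunits RELA and RELB had values of 0.18 (adjusted p 0.11) and 0.47 (adjusted p 0.12). IRAK2, chosen after its values were seen because it was the only gene of the list past the thresholds of the study, had 822, 1265 and 673 counts in ACM, against 648, 379 and 321 in UCM. Its log2 FC was 1.07 (SE 0.32, adjusted p 0.12 by edgeR). DESeq2 called 2 genes of the list, RELB with an adjusted p of 0.024 and NFKB2, also chosen after its values were seen, with 0.019. Over 14 alternatives the adjusted p of RELB ran from 3.81e-05 to 0.338 and that of NFKB2 from 8.62e-05 to 0.395. Alternative edgeR fits called both with every gene of at least 1 count and without UCM replicate 1, and NFKB2 alone with the replicate block.

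Of 23 genes known to be induced by IL1, 18 entered the test, of which 10 were higher in ACM by edgeR, 0 were lower and the others did not pass. They were taken from general knowledge of the pathway with results of these data known, and most also respond to other NF-kB signals, so their direction is not independent evidence. The 18 tested genes all had a positive log2 FC, with a median of 1.51. Over all genes tested 3.35% were called higher and 2.21% lower. In 15 of the 18 all ACM libraries lay above all UCM libraries, against 13.9% of all genes tested. The neutrophil chemokines CXCL1, CXCL2 and CXCL3 rose with log2 FC of 1.97, 2.12 and 2.77. Their sequences are closely related, so the division of shared reads among them is uncertain. CXCL1 had 5684, 8485 and 5625 counts in ACM, against 2337, 1417 and 1389 in UCM. The monocyte chemokine CCL2 rose by a log2 FC of 0.80 (SE 0.13, adjusted p 0.0089 by edgeR), and the adhesion receptor ICAM1 by 0.94 (SE 0.14, adjusted p 0.0097 by edgeR). IL6, a cytokine, rose by 2.75 and MMP3, a matrix protease, by 2.88. PTGES, which makes prostaglandin E, rose by 1.499, and the feedback regulators NFKBIZ and ZC3H12A rose by 1.51 and 0.93. Leaving out UCM replicate 2 reduced the count of 10 to 3, and leaving out UCM replicate 3 reduced it to 2. In the same fits the genes called higher over all genes tested fell from 484 to 125 and to 156. DESeq2 called 15 of the list, and 726 genes higher over all genes.

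**Figure D3:**
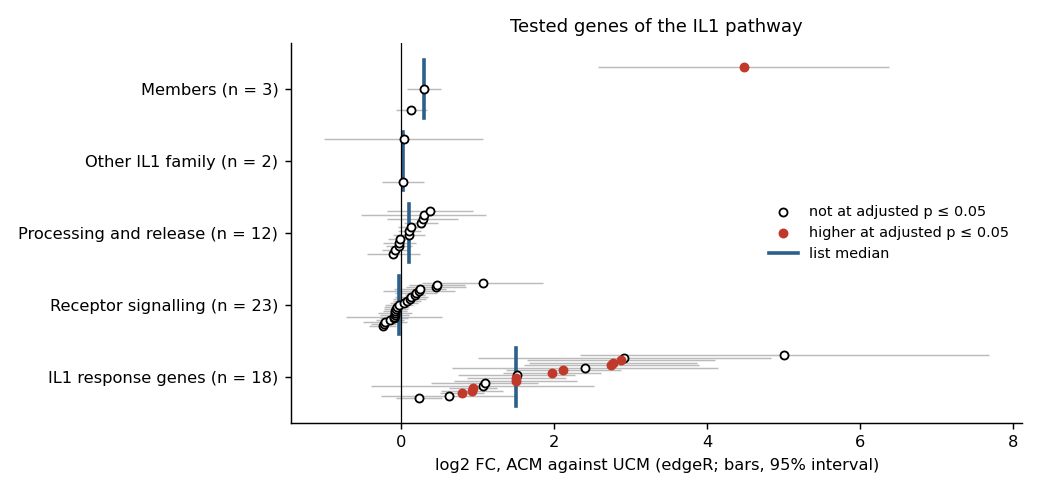
Log2 FC of ACM against UCM (horizontal axis) for every tested gene of 5 gene lists (rows), with 95% intervals from edgeR as grey bars, filled points for genes higher at an adjusted p of at most 0.05 and vertical bars for list medians. IL1B at 4.48 is the filled point of the members, and the 18 IL1 response genes all lie above 0 with a median of 1.51.

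The genes with the profile nearest to that of IL1B, by root mean square difference of centred log2 CPM over the 6 libraries among 13350 genes of at least 1 CPM on average, were IL6 (0.21), MMP3 (0.236) and GDF15 (0.241). IL6 had 37.9, 85.9 and 33 CPM in ACM, against 9.81, 6.18 and 7.11 CPM in UCM. MMP3 had 13, 36.3 and 14.3 CPM in ACM, against 3.7, 2.85 and 1.98 CPM in UCM. GDF15, a stress-induced cytokine of the TGF-beta family, had 145, 485 and 161 CPM in ACM, against 50.3, 29.2 and 28.2 CPM in UCM. These genes were chosen for their likeness to IL1B, so that a shared order of libraries follows from the choice. The log2 CPM used here has a prior count of 2, which shrinks differences in genes with few reads. The likeness of IL1B to these genes in size of change therefore depends on that setting. In IL1B, ACM replicate 2 was the highest ACM library and UCM replicate 1 the highest UCM library, as in 12.1% of all 14451 genes tested. The same held in 16 of the 18 tested IL1 response genes, a list chosen with results of these data known. For IL1A, whose profile rests on 8 reads, the nearest were CA11 (0.0672), ABTB1 (0.0746) and ABCC3 (0.0764). The prior count shrinks IL1A strongly, so these smaller distances do not mean a closer likeness than those of IL1B.

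**Figure D4:**
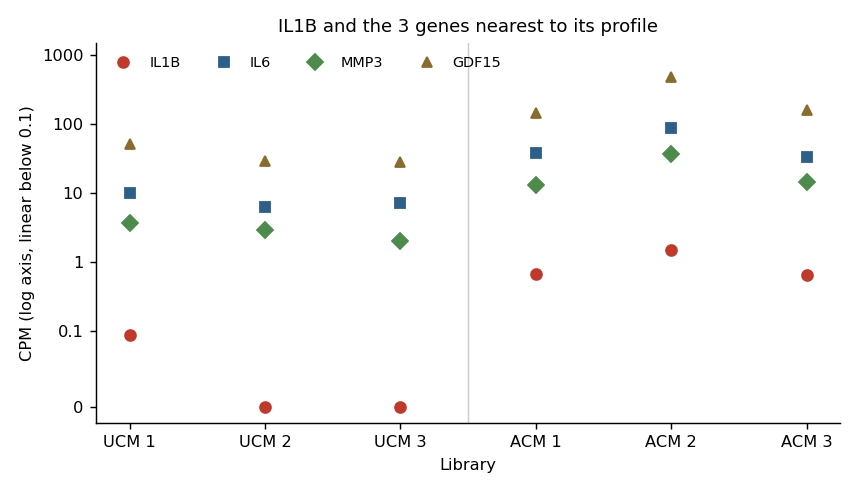
CPM (vertical axis, logarithmic above 0.1 and linear below) of IL1B, IL6, MMP3 and GDF15 in each of the 6 libraries (horizontal axis), 1 point per gene and library. The 3 genes were chosen for their likeness to IL1B. ACM replicate 2 is the highest library of each gene, with IL1B at 1.47 and IL6 at 85.9 CPM, and IL1B is at 0 in UCM replicates 2 and 3.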

How the data were processed

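RNA from BT-549 cells in ACM or UCM (3 libraries each, 24 h, polyA-enriched, paired-end) was trimmed with Trim Galore, aligned with STAR to GRCh38 (hg38) and quantified with RSEM, per the study's methods and the labels; their versions are not given in the sources used here. The authors deposited 1 RSEM gene table per library, and its expected counts (estimated read numbers per gene), TPM and effective lengths were used. A separate deposited table of the authors' own comparison (fold changes and p-values) was not used.

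Expected counts were rounded, filtered with filterByExpr, scaled by TMM and tested in edgeR 4.0.16 (R 4.3.3; quasi-likelihood, robust, condition only, groups from the sample titles). The standard error is the log2 FC divided by the root of F. limma 3.58.1 on log2(TPM + 1) or log2(TPM + 0.1), and DESeq2 1.42.0, were alternatives, beside other filters, scalings, length offsets and fits without each library. The edgeR script was tested on simulated data. Genes were named from GENCODE 44 (61547 of 63140 identifiers matched with version, 994 without and 599 stayed unnamed). Exact intervals are Clopper-Pearson, and the floor is 3 counts.

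The members, gene lists and tests were chosen with earlier results of these data known. All 9 members are named. Of each list the text names genes called and otherwise those with the smallest unadjusted p up to 4, and for IL1A and IL1B the 3 nearest profiles (prior count 2). Further genes are named outside this rule: IRAK2, NFKB2, NLRP1, CARD8, NLRP3, NLRC4, AIM2, PYCARD, GSDMD, CARD16, IL1R2, IL1RL2 and IL18R1. Depth, 17135288 to 21053257 counts per library, limits the low genes.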

Additional observations from a re-analysis of the deposited data

How the results depend on the processing

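The count of members higher in ACM was 1 and became 0 with DESeq2 (IL1B received no adjusted p), 0 with at least 10 counts required in every library (IL1B was then not tested, so no value of it exists there) and 2 with every gene of at least 1 count (IL1B and IL1RAP), and it ranged from 0 to 1 when each library was left out. No member was called lower in any fit. Over all genes tested, 484 were higher and 320 lower in ACM. With every gene of at least 1 count these were 1045 and 679, with limma on log2(TPM + 1) 230 and 132, on log2(TPM + 0.1) 234 and 138, and with effective lengths as offsets 272 and 134. Leaving out each library gave 125 to 738 higher and 62 to 572 lower. The causes were not tested. The log2 FC of IL18BP was 0.04 and reversed to -0.00696 and -0.0291 with limma at pseudocounts of 1 and 0.1 and to -0.0115 with the replicate block, and it ran from -0.5125 to 0.4155 when each library was left out, negative without ACM replicate 1, UCM replicate 2 or UCM replicate 3. That of SIGIRR was 0.03 and ran from -0.0195 to 0.1217, negative without ACM replicate 1 (-0.0057) or UCM replicate 3. The deviations of same-numbered libraries correlated at 0.318, 0.0347 and 0.177. ACM replicate 3 correlated slightly better with UCM replicate 2 (0.196), and the remaining pairs ran from -0.314 to -0.0146. These values do not settle whether the replicate numbers pair the samples. With the replicate number as a block, 909 genes were higher and 703 lower, 1 member was higher (IL1B, log2 FC 4.46, adjusted p 0.0073 by edgeR) and 6 IL1 response genes were higher. Low counts kept 6 of the 9 members out of the test.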
